A study of Mus musculus with 22 samples.

Results

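Ccl5, Cxcl10, Cxcl12, Cxcl16 and Cx3cl1 are 5 secreted or membrane-bound chemokines that draw T cells and other leukocytes into tissue or hold cells within stroma. Their RNA levels were read in 22 mouse mammary cell lines, with 1 exon array per line. The members were taken by gene symbol from the deposited value table, where each of the 5 had 1 transcript cluster, out of 14860 genes with a named cluster. A transcript cluster is the set of array probes that reads 1 gene. All values below are log2 values, so a difference of 1 stands for a fold of 2. Probe affinities differ between genes, so no gene's level is set against another gene's. The median of each array serves as a mark within that array and is no detection call.

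Chemokines are small proteins that guide migrating cells through receptors coupled to G proteins. CCL5 acts on CCR1 and CCR3, and CXCL10 acts on CXCR3, a receptor of activated T cells and natural killer cells. Interferons and NF-kappaB induce both of these genes in many cell types. CXCL16, the ligand of CXCR6, and CX3CL1, the ligand of CX3CR1, are made as transmembrane proteins with a chemokine head on a mucin stalk, and the metalloproteases ADAM10 and ADAM17 release their soluble forms. CXCL12 binds CXCR4 and the scavenging receptor ACKR3, and in the breast it is known mainly as a product of fibroblasts and other stromal cells.

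The study set lines from tumours of genetically engineered mice (GEM) beside lines from spontaneous tumours and immortalized, non-tumour lines. Of the 12 GEM lines, 5 carry a Myc transgene under the mouse mammary tumour virus (MMTV) promoter, namely 6DT1, cMyc and Myc83 with Myc alone and MVT1 and MVT2 with Myc and VEGF. The 7 other GEM lines are 2508 and 2855 from MMTV-Wnt carcinoma ZD2508, M6 and its lung-metastatic derivative M6C from a C3(1)Tag mouse, DB7 from a transplanted MMTV-PyVT Db tumour, 780 and p1522. PyVT Db is a polyoma middle T mutant uncoupled from PI3K. Line 780 is described as BRCA-/-, p53+/+ with Wap-cre, but its growth protocol names a BRCA-/-;p53+/- model. Line p1522 is described as p53-/- with MMTV-cre, but its growth protocol names a p53+/- model. Spontaneous tumours gave 8 lines: 4T1, 4T07 and 67NR from 1 BALB/cfC3H tumour, D2A1 and D20R from a D2 hyperplastic alveolar nodule line, EMT6 from a BALB/c nodule implant tumour, F311, a sarcomatoid clone of a BALB/c tumour, and TSA from a BALB/c tumour. Of the drug-marked lines of the first tumour, 67NR was transfected for geneticin resistance, 4T07 for thioguanine and ouabain resistance, and 4T1 was selected for thioguanine resistance. The 2 immortalized lines are EPH4, a BALB/c subclone that carries an empty retroviral vector, and NMUMG, grown out of adult Namru mammary gland. The lines form 17 lineages, of which 10 are GEM, 5 spontaneous and 2 immortalized, and lines of 1 tumour, parent or nodule line were averaged before any test. No line was cultured or arrayed again, so p-values measure the spread between lineages.

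Over the 16755 tested transcript clusters the values ran from 2.77 to 13.77, array medians lay between 6.78 and 7.17, and array SDs between 1.76 and 2.12. The 3 narrowest arrays were those of 2855, F311 and 2508, and 2855 was the highest of all lines for 3685 clusters. Of 13 immune cell markers, 0 to 2 lay above the array median in GEM lines, 0 to 2 in spontaneous lines and 1 in each immortalized line. For 8 endothelial markers the counts were 0 to 1 in GEM lines, 0 in spontaneous lines and 0 in immortalized lines. Of 11 mammary epithelial markers, 1 to 10 lay above the array median in GEM lines, 1 to 10 in spontaneous lines and 4 to 9 in immortalized lines. Of 9 fibroblast markers, 2 to 6, 2 to 5 and 2 to 3 did so in GEM, spontaneous and immortalized lines. Mammary epithelial markers were thus low in part of the lines, and their part in the results was not tested. In such bulk RNA fewer cells of a type and less RNA per cell cannot be told apart.

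The T-cell attractant Ccl5 was highest in the BRCA-deficient line 780 and lowest in the immortalized lines. Among Myc GEM lines it read 5.62 in 6DT1, 5.62 in cMyc, 5.81 in MVT1, 5.54 in MVT2 and 6.60 in Myc83. In the other GEM lines it ran from 5.59 in 2508 through a median of 6.22 to 11.07 in 780, and in the spontaneous lines from 5.70 in F311 through 7.25 to 7.95 in EMT6. It read 5.16 in EPH4 and 5.51 in NMUMG. Above their own array median were 3 of 12 GEM lines (780, DB7 and p1522), 5 of 8 spontaneous lines (4T1, D2A1, D20R, EMT6 and TSA) and 0 of 2 immortalized lines. DB7 read 7.78 and p1522 read 6.96, so 780 lay 3.11 above the next lineage, EMT6. That was the 1 of 16 gaps between neighbouring lineages to exceed the SD pooled between lines of 1 lineage, 0.68 with 5 degrees of freedom.

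Cxcl10, the interferon-induced attractant of CXCR3-bearing T cells, had the same leading line. It read 6.52 in 6DT1, 6.62 in cMyc, 6.77 in MVT1, 6.47 in MVT2 and 7.24 in Myc83. Among the other GEM lines it ran from 6.40 in M6C through a median of 7.31 to 10.89 in 780, and among the spontaneous lines from 6.53 in 4T07 through 7.18 to 8.74 in D20R. The immortalized lines read 6.91 in EPH4 and 7.07 in NMUMG, inside the range of the tumour lines. After 780, the high lines were D20R at 8.74, EMT6 at 8.27 and D2A1 at 8.0, all spontaneous. The gap of 2.52 below 780 and the gap of 0.70 below EMT6 exceeded the pooled SD between lines of 1 lineage, 0.38, while the 14 other gaps between neighbouring lineages did not. Line 780 was the highest of 22 lines for both of these chemokines, as for 4.52% of all clusters.

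Cxcl12, the stromal chemokine, lay below the array median in most lines. It read 5.42 in 6DT1, 5.65 in cMyc, 5.47 in MVT1, 5.44 in MVT2 and 6.05 in Myc83. In the other GEM lines it ran from 5.24 in DB7 through a median of 5.78 to 8.01 in 2855, and in the spontaneous lines from 5.21 in 4T07 through 5.58 to 6.75 in TSA. The immortalized lines differed from each other, with 7.35 in EPH4 and 5.59 in NMUMG. The 3 lines above their array median were 2855, 780 at 7.75 and EPH4. Line 2855 was the highest in Cxcl12, as for 3685 of all 16755 clusters. No gap between neighbouring lineages exceeded the pooled SD between lines of 1 lineage, 0.85, so the order of lineages was not resolved step by step.

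Cxcl16, the transmembrane ligand of CXCR6, had the widest spread between lineages of the 5 genes, with an SD of 1.72 over 17 lineages. Among the Myc GEM lines it read 5.78 in 6DT1, 6.46 in cMyc, 6.13 in MVT1, 5.71 in MVT2 and 8.25 in Myc83, so Myc83 alone lay above its array median there. The other GEM lines ran from 6.77 in 2508 through a median of 8.65 to 10.03 in M6C. The spontaneous lines ran from 5.46 in TSA through 8.41 to 10.92 in 4T1, and the immortalized lines read 11.14 in EPH4 and 8.74 in NMUMG. EPH4 was the highest line, as for 8.99% of clusters. Lines above the array median numbered 7 of 12 GEM, 5 of 8 spontaneous and 2 of 2 immortalized. The spread inside lineages was as wide, with a pooled SD of 2.07, and none of the 16 gaps between neighbours exceeded it.

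Cx3cl1, the transmembrane ligand of CX3CR1, lay above the array median in 22 of 22 lines. It read 10.12 in 6DT1, 9.72 in cMyc, 10.18 in MVT1, 9.17 in MVT2 and 10.14 in Myc83. The other GEM lines ran from 9.41 in 780 through a median of 9.90 to 10.20 in 2508, and the spontaneous lines from 8.26 in F311 through 9.69 to 11.22 in D20R, the highest line, as for 1.58% of clusters. EPH4 at 8.33 and NMUMG at 7.40 were low, together with F311 and TSA at 8.34. Of the gaps between neighbouring lineages, 3 of 16 exceeded the pooled SD of 0.36, below the D2 lineage by 0.70, between MVT2 and TSA by 0.84 and between F311 and NMUMG by 0.87. No gap between neighbouring GEM lineages exceeded the pooled SD, while MVT1 and MVT2, the highest and lowest GEM lineages, differed by 1.0.

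**Figure D1:**
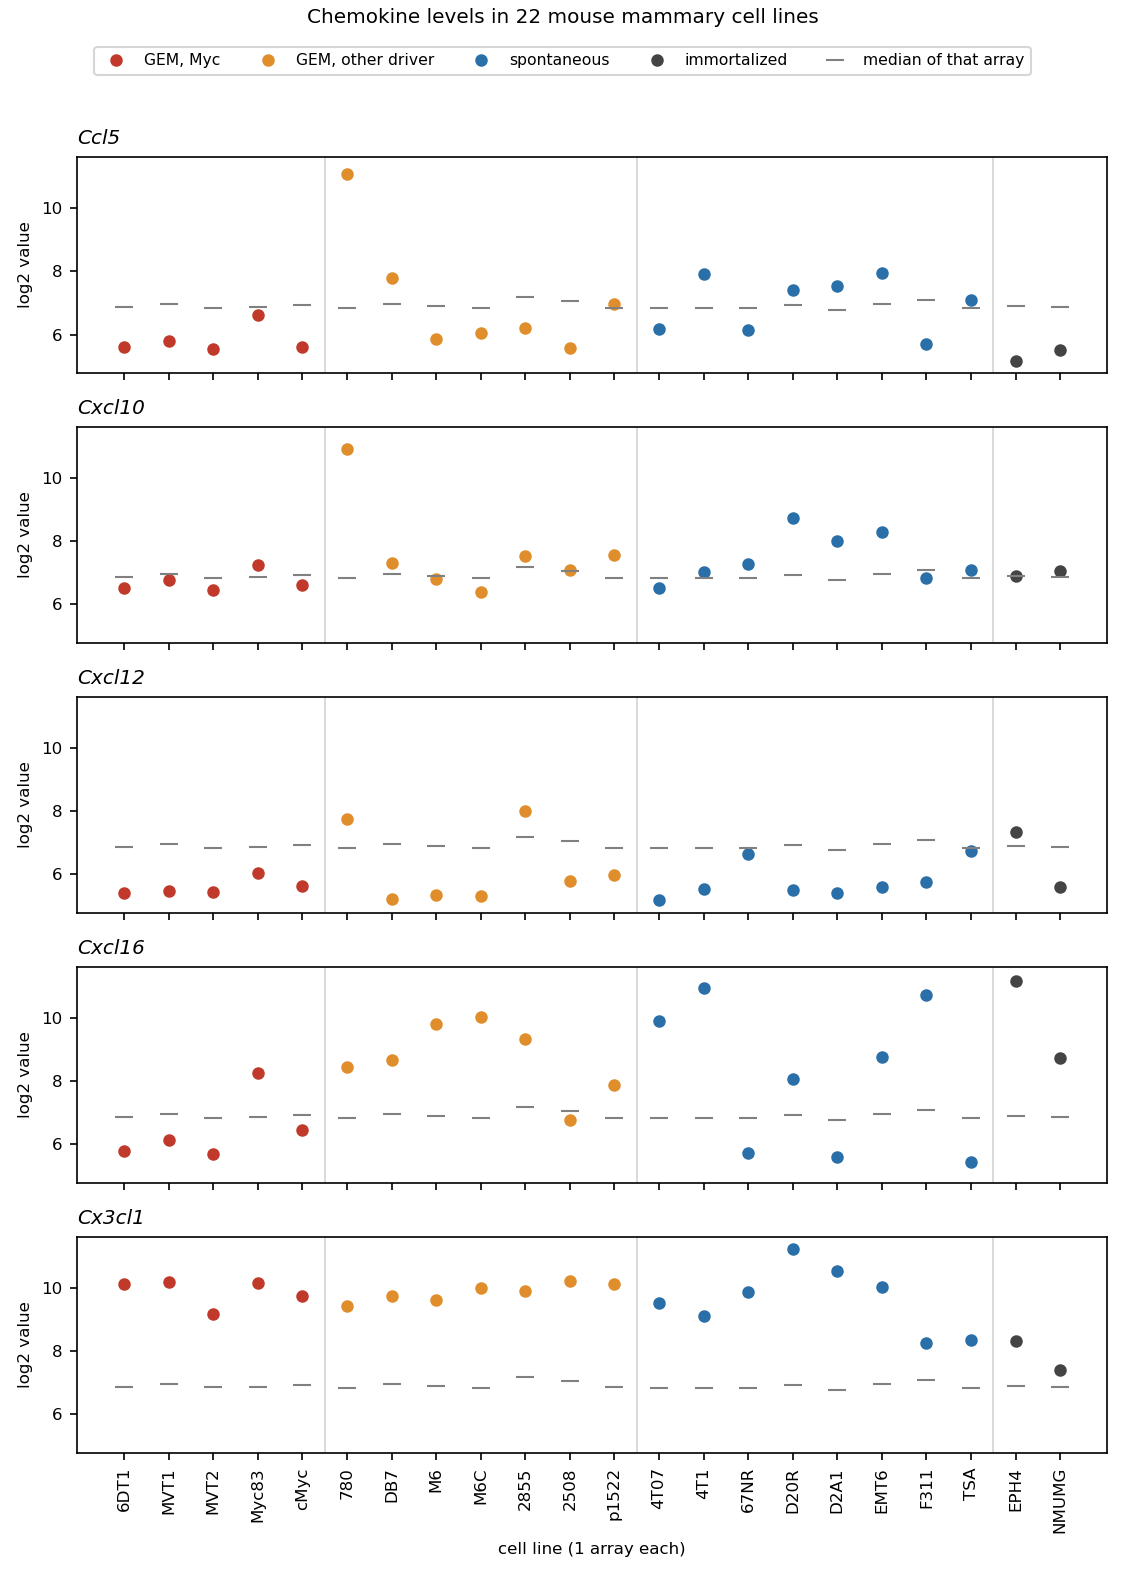
Log2 value of the 5 chemokines (1 panel each, vertical axis) in each of 22 lines (horizontal axis), coloured by group, with a grey dash at the median of that line's array. Ccl5 and Cxcl10 stand apart in 780 at 11.07 and 10.89, Cxcl12 lies under the dash in 19 lines, and Cx3cl1 lies above it in all 22.

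The first comparison asked whether tumour lines differ from immortalized lines. Cx3cl1 averaged 9.69 ± 0.69 in tumour lineages (SD, n = 15) and 7.86 ± 0.66 in immortalized lineages (SD, n = 2), a limma difference of 1.76 (SE 0.48, 95% interval 0.76 to 2.76). Its unadjusted p was 0.00177, rank 250 of all clusters, and its Benjamini-Hochberg adjusted p of 0.117 missed the threshold of 0.05. The lineages overlapped, since F311 at 8.26 lay below EPH4 at 8.33. The limma contrast weights GEM and spontaneous equally, while the two-sided exact permutation test takes the plain mean of the 15 tumour lineages and gave a difference of 1.83 with p = 0.0147, where 136 splits allow no p below 0.00735. Without NMUMG the difference was 1.29 and without EPH4 it was 2.22.

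Cxcl16 lay the other way, at 7.72 ± 1.60 in tumour lineages (SD, n = 15) and 9.94 ± 1.70 in immortalized lineages (SD, n = 2). The limma difference was -2.12 (SE 1.12, 95% interval -4.49 to 0.25, adjusted p = 0.484), and it was -0.92 without EPH4 and -3.32 without NMUMG. Ccl5 averaged 6.79 ± 1.44 in tumour lineages and 5.34 ± 0.24 in immortalized lineages, a difference of 1.5 (SE 0.99, limma adjusted p = 0.6). Every tumour lineage exceeded both immortalized lines in Ccl5, but the nearest pair, MVT2 at 5.54 and NMUMG at 5.51, all but touched. Lineages separated in this direction at 1.88% of all clusters. Cxcl10 differed by 0.43 (SE 0.78) and Cxcl12 by -0.57 (SE 0.54), with limma adjusted p-values of 0.881 and 0.75. Cxcl10 was 0.23 higher without 780. Cxcl12 turned to 0.31 without EPH4 and was -1.45 without NMUMG.

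By limma, 0 of the 5 chemokines passed the adjusted threshold between tumour and immortalized lines, against 0.298% of all 16755 clusters. At an unadjusted p under 0.05 the count was 1 of 5, Cx3cl1, against 11.9% of clusters. Without 780 it was 2 of 5, with Ccl5 at a difference of 1.26 (unadjusted p = 0.0301, limma adjusted p = 0.341). The share of all clusters in that fit is not given here, so 11.9% is no background for that count. With 2 immortalized lineages the precision rests on EPH4 and NMUMG. Their media are not given in the labels.

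GEM and spontaneous tumour lines were compared next, and differences were within the spread of lineages. Ccl5 averaged 6.69 ± 1.70 in GEM and 6.99 ± 0.85 in spontaneous lineages (SD, n = 10 and 5), with a limma difference of -0.31 (SE 0.72). Cxcl10 averaged 7.33 ± 1.31 in GEM and 7.5 ± 0.75 in spontaneous lineages, with a difference of -0.17 (SE 0.56). For Cxcl12 the difference was 0.05 (SE 0.39), for Cxcl16 -0.60 (SE 0.81) and for Cx3cl1 0.44 (SE 0.34). The 95% intervals reached from -1.82 to 1.20 for Ccl5 and from -2.31 to 1.12 for Cxcl16, so differences of 1 in either direction lie within them. Cx3cl1 was more even in GEM lineages, with an SD of 0.34 against 1.12 in spontaneous lineages, a spread that was not tested. By limma, 0 of 5 passed the adjusted threshold, against 0.113% of clusters, and 0 of 5 had an unadjusted p under 0.05, against 7.72%. Without 780 the Ccl5 difference was -0.79 and the Cxcl10 difference -0.57, and without EMT6 that of Ccl5 was -0.07. The Cx3cl1 difference was 0.16 without F311, 0.18 without TSA and 0.81 without D2, and that of Cxcl16 was -1.26 without TSA. The signs for Cxcl10, Cxcl12 and Cxcl16 turned when single lineages were left out.

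Within the GEM lineages, those with a Myc transgene were set against those with another driver. Cxcl16 was lower in the Myc lineages, at 6.47 ± 1.04 against 8.58 ± 0.81 in the other GEM lineages (SD, n = 5 each). The limma difference was -2.11 (SE 0.51, 95% interval -3.23 to -0.99) with an unadjusted p of 0.00157, rank 40 of all clusters, and an adjusted p of 0.643. The exact two-sided permutation test over 252 splits gave p = 0.0238, where 0.00794 is the smallest p possible. The lineages overlapped through Myc83, at 8.25 against 7.86 in p1522, and without Myc83 the difference was -2.56 with a limma adjusted p of 0.0528. Media differed between drivers, and the part of the medium in the difference was not tested. MVT1 and MVT2 shared a medium with 780 and read 6.13 and 5.71 against 8.43 in 780, 3 single arrays. The other Myc lines grew in low-glucose medium that no other driver had, so medium and driver cannot be told apart there.

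Ccl5 averaged 5.84 ± 0.44 in Myc and 7.53 ± 2.12 in other GEM lineages (SD, n = 5 each), a difference of -1.70 (SE 0.83, limma adjusted p = 0.964). Cxcl10 averaged 6.73 ± 0.31 in Myc and 7.94 ± 1.69 in other GEM lineages, a difference of -1.21 (SE 0.66, limma adjusted p = 0.999). Line 780 carried much of both differences, since without it they were -0.81 and -0.47, with unadjusted p-values of 0.0625 and 0.0604. The exact permutation p was 0.0556 for Ccl5 and 0.0476 for Cxcl10. Cxcl12 differed by -0.64 (SE 0.43) and Cx3cl1 by 0.05 (SE 0.21), both with a limma adjusted p of 0.999. Without 780 the Cxcl12 difference was -0.26. The 95% interval for Cx3cl1 was -0.43 to 0.52, and its sign turned when 6DT1, 780, MVT1 or Myc83 was left out.

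By limma, 0 of 5 passed the adjusted threshold between Myc and other GEM lineages, against 0.0119% of clusters. At an unadjusted p under 0.05 there was 1 of 5, Cxcl16, against 5.41% of clusters. The exact permutation p-values are single tests, 15 in all over 5 genes and 3 comparisons, and are not adjusted.

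**Figure D2:**
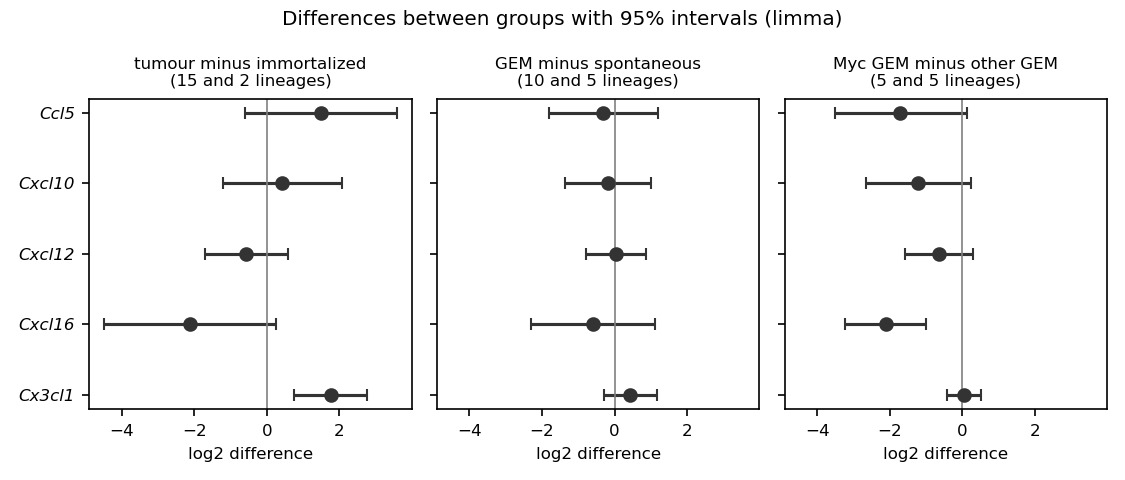
Limma difference in log2 value (horizontal axis) of each chemokine (rows) for tumour minus immortalized, GEM minus spontaneous, and Myc GEM minus other GEM lineages, with points for the estimate and bars for the 95% interval. The bars that leave out 0 are those of Cx3cl1 in tumour minus immortalized, 0.76 to 2.76, and of Cxcl16 in Myc minus other GEM, -3.23 to -0.99.

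Lines of a single lineage differed most in Cxcl16. In the lines of 1 BALB/cfC3H tumour it read 10.92 in 4T1, labelled fully metastatic, 9.90 in 4T07, labelled as disseminating without colonizing, and 5.74 in 67NR, labelled non-disseminating. The difference was 5.19 for 4T1 minus 67NR and 4.17 for 4T07 minus 67NR, where 12.8% and 10.2% of clusters differed by over 1 log2 unit in either direction. Mammary epithelial markers moved along, with a mean gene-centred value of 1.57 in 4T1, 0.85 in 4T07 and -1.45 in 67NR, and their part in the difference was not tested. Each of these lines is 1 array, so no test applies.

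Cxcl16 also read 9.33 in 2855 against 6.77 in 2508, a difference of 2.56, and 8.06 in D20R against 5.59 in D2A1, a difference of 2.47. The epithelial markers averaged 1.01 in 2855 against -0.34 in 2508, and -1.12 in D20R against -1.50 in D2A1, and their part was not tested. In those pairs 5.28% and 4.32% of clusters differed by over 1. For 2855 and 2508, whose arrays were narrow, the difference was 3.08 after quantile normalization. The lung-metastatic M6C and its parent M6 differed by 0.24, at 10.03 and 9.80, and 1.57% of clusters differed by over 1 there.

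Cxcl12 and Ccl5 also differed by over 1 between lines of a lineage, and Cxcl10 and Cx3cl1 did not. Cxcl12 read 8.01 in 2855 and 5.78 in 2508, a difference of 2.23, and 2.60 after quantile normalization. The fibroblast markers averaged 1.35 in 2855 against 0.45 in 2508 (mean gene-centred level), and their part was not tested. Immune and endothelial markers also read higher in 2855, at 0.5 and 0.52 against 0.27 and 0.28 in 2508. Cxcl12 read 5.54 in 4T1 and 5.21 in 4T07 against 6.65 in 67NR. So 67NR, the lowest of these lines in Cxcl16, was the highest in Cxcl12. The fibroblast markers there averaged -0.57 in 4T1, -0.58 in 4T07 and 0.27 in 67NR. Ccl5 read 7.92 in 4T1 against 6.18 in 4T07 and 6.14 in 67NR, and 3.18% of clusters differed by over 1 between 4T1 and 4T07. The immortalized lines are separate lineages, and EPH4 exceeded NMUMG by 2.41 in Cxcl16, 1.76 in Cxcl12 and 0.93 in Cx3cl1, where 9.47% of clusters differed by over 1.

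**Figure D3:**
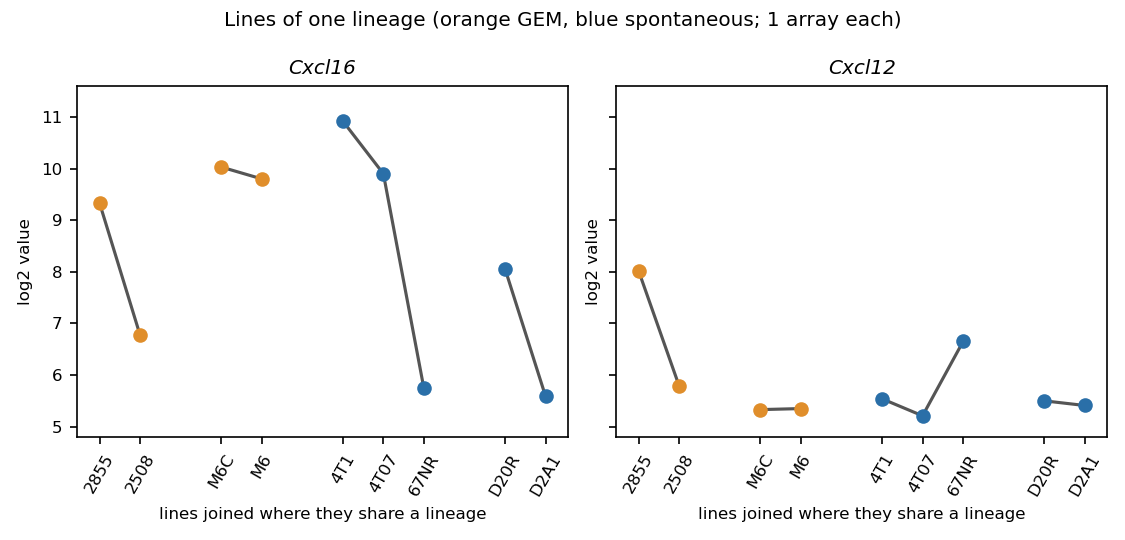
Log2 value (vertical axis) of Cxcl16 and Cxcl12 in lines that share a lineage (horizontal axis, joined by a line, 1 array each), orange for GEM and blue for spontaneous. Cxcl16 spans 5.74 to 10.92 within the tumour of 67NR, 4T07 and 4T1, whereas M6C and M6 lie 0.24 apart.

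Ccl5 and Cxcl10 ran together over lineages, and both ran with interferon-stimulated genes and, in rank, with fibroblast markers. Over 17 lineages the Pearson r between them was 0.92 and the Spearman rho 0.76. It was 0.69 without 780 and EMT6, the lineages farthest from the median of Ccl5, and 0.77 without 780 alone. The mean gene-centred level (each gene's value minus its mean over lines or lineages) of 20 interferon-stimulated genes had an r of 0.84 with Ccl5 (rho 0.66, and 0.62 without 780 and EMT6) and of 0.82 with Cxcl10 (rho 0.64, and 0.73 without 780 and D2). With the mean of 9 fibroblast markers, Cxcl10 had an r of 0.35 (rho 0.74, and 0.78 without 780 and D2), and 0.73 without 780, against 0.68 with the interferon-stimulated genes without 780. Ccl5 had an r of 0.31 with the fibroblast markers (rho 0.60, and 0.54 without 780). All points share the array platform and the unstated normalization, and these are descriptions of 17 points.

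In 780 all 20 of these genes lay above their mean over lines, and 13 were at their highest there. The mean gene-centred level was 1.98 in 780, 1.31 in p1522, 1.04 in EMT6 and 0.82 in DB7, and it was lowest in M6 at -0.63. Of 13 immune markers 1 lay above the array median in 780, as in most lines. The leukocyte antigen Ptprc lay above it in 0 of 22 lines, with 4.30 in 780. Of the macrophage markers, Cd68 and Csf1r read 7.67 and 6.02 in 780, rank 7 of 22 lines each, while Adgre1 ranked 21. Csf1r lay above the array median in 0 of 22 lines. The immune markers Itgam and S100a8 ranked 17 and 22 in 780. The 13 markers had a mean gene-centred level of -0.26 in 780, with 1 of 13 above its mean over lines. Epithelial markers were low there, with 0 of 11 above their mean over lines.

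The genes most like each member were ranked by Pearson r over the 17 lineages among 9657 genes. These had 1 symbol, were not predicted genes and exceeded the median of all clusters in at least 1 lineage. A gene high in 780 alone could thus enter through 780. For Ccl5 the most alike were Cxcl10 (r = 0.924), Ifit1 (0.900), Coq6 (0.863), Rsad2 (0.853) and Ifih1 (0.843). Ifit1 and Rsad2 are antiviral effectors, Ifih1 encodes the RNA sensor MDA5, and Coq6 acts in coenzyme Q synthesis. Ifit1 kept an r of 0.88 without 780. For Cxcl10 they were Ccl5 (0.924), Cxcl11, another CXCR3 ligand (0.897), Cntnap1 (0.869), Rad51b (0.863) and Septin3 (0.853). Without 780 the r with Cxcl10 was 0.77 for Ccl5, 0.51 for Cxcl11, 0.49 for Cntnap1, 0.43 for Rad51b and 0.07 for Septin3, so the likeness of the last 4 rests in large part on 1 line. Cxcl11 read 9.78 in 780 and was above the array median in 1 of 22 lines.

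**Figure D4:**
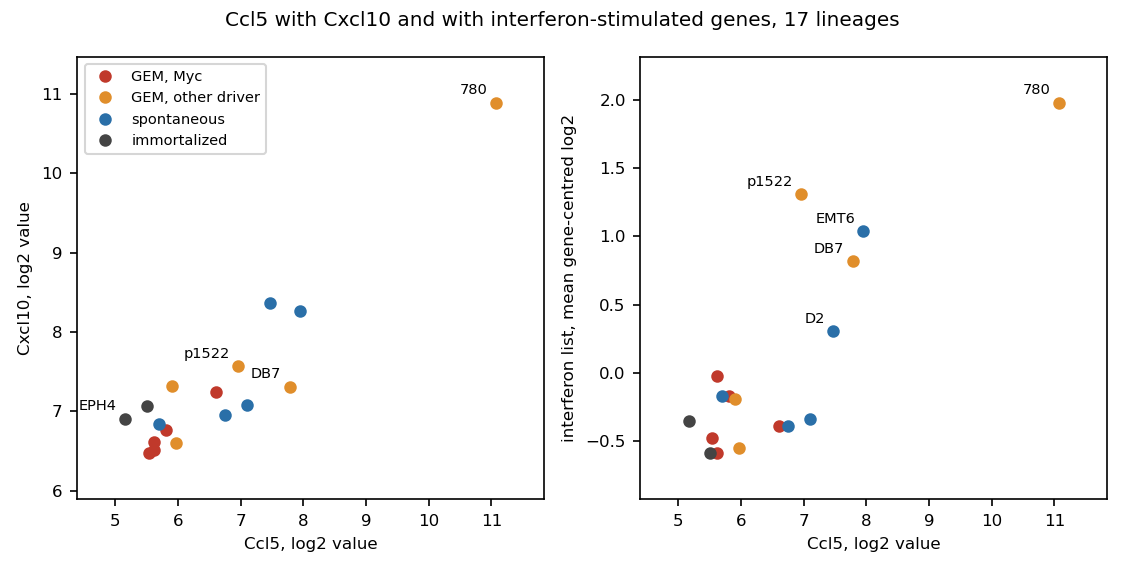
Cxcl10 log2 value (left) and mean gene-centred log2 level of 20 interferon-stimulated genes (right) against Ccl5 log2 value for 17 lineages, coloured by group. Line 780 is at the top right of both panels, at 11.07 for Ccl5, and r is 0.77 (left) and 0.71 (right) without it.

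Promoter sequence was at hand for 3 of the 5 members, in windows of 250 bases before to 50 after the gene start (RefSeq, GRCm38.p6). The Cxcl10 window is printed because Cxcl10 is an interferon target whose level ran with Ccl5. It lies at chr5:92348840-92349139 on the minus strand, and its capitals mark the matches to an interferon-stimulated response element (ISRE, the letters GAAA, any 2 bases and GAAA again, searched on both strands) and to the NF-kappaB motif.
Cxcl10: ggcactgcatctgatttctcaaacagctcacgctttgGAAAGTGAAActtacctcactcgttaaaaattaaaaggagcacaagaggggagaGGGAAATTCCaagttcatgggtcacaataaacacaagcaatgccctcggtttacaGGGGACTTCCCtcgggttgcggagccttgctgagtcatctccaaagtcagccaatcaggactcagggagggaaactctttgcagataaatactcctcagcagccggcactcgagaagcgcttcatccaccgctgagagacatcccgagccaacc

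The ISRE match starts 213 bases before the gene start. The 4 NF-kappaB matches, counted over both strands, fall at 2 places. At the second place 3 of them overlap, and 2 of those are the same bases read on either strand. An ISRE match occurs in 3.44% and an NF-kappaB match in 8.46% of 32851 promoter windows of the same length. The Cxcl12 and Cx3cl1 windows hold 0 matches to either motif, which says only that these letters are absent from those windows.

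Of the genes most like Ccl5, Ifit1, Rsad2 and Ifih1 also hold an ISRE match, and Coq6 holds none. Of those most like Cxcl10, Rad51b holds none, and Cxcl11, Cntnap1 and Septin3 were not searched. The sites are shown beside the Cxcl10 site, each with its flanks on the strand of its gene and the match in capitals. They lie at chr5:92349083-92349112 (minus), chr19:34640775-34640804 (plus), chr12:26456553-26456582 (minus) and chr2:62646206-62646235 (minus), in the order printed.
Cxcl10: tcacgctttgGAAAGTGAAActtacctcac
Ifit1: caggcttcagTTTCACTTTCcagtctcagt
Rsad2: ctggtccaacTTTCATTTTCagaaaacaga
Ifih1: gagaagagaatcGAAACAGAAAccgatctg

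In Ifit1 and Rsad2 the match is on the opposite strand, so it reads as TTTC, 2 bases and TTTC here. It starts 104 bases before the gene start in Ifit1 and 120 bases before it in Rsad2. The Ifih1 match lies after the gene start, from base 33 on. Of the 20 interferon-stimulated genes, 14 had a promoter entry and 7 of those held an ISRE match. A match is a description of the sequence and does not show binding.

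Cxcl16 ran with mammary epithelial markers. Over 17 lineages the r between Cxcl16 and the mean gene-centred level of 11 epithelial markers was 0.76 (rho 0.62), 0.70 without EPH4 and TSA and 0.80 without 780. Lineages high in both were M6, F311 and EPH4, and TSA and 4 of the 5 Myc lines were low in both. The markers averaged 1.07 in Myc83, the Myc line with Cxcl16 at 8.25, and between -1.04 and -0.92 in the 4 other Myc lines. Line 780 went against this, with Cxcl16 at 8.43 and a marker mean of -1.38, as did EMT6, with 8.76 and -1.14. Between Myc and other GEM lineages 9 of the 11 epithelial markers were lower, with a median difference of -1.04. Over all clusters the median was 0.03, and 58.1% were higher. The part of these markers in the Cxcl16 difference was not tested.

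The genes most like Cxcl16 were Celf2 (r = 0.906), an RNA-binding splicing factor, Lad1 (0.858), an epithelial anchoring filament protein, Gadd45b (0.844), a stress-response gene, Actr1a (0.836), a dynactin subunit, and Plpp6 (0.823), a lipid phosphatase. Their rho values were between 0.76 and 0.87, and their r without 780 between 0.82 and 0.91.

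**Figure D5:**
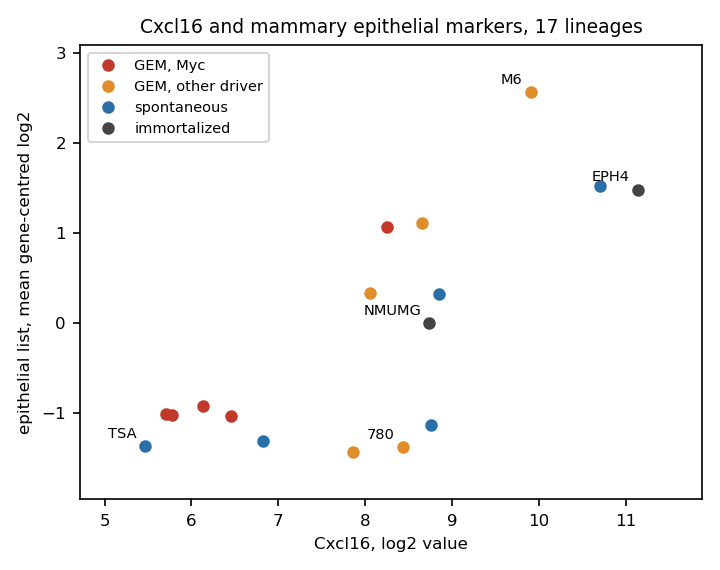
Mean gene-centred log2 level of 11 mammary epithelial markers (vertical axis) against Cxcl16 log2 value (horizontal axis) for 17 lineages, coloured by group. M6 and EPH4 are high on both axes and TSA is low on both, while 780 has Cxcl16 at 8.43 with markers at -1.38.

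Cxcl12 and Cx3cl1 had no such partner list in common. Cxcl12 had an r of 0.20 with the fibroblast markers (rho 0.33, 0.46 without 780 and EPH4, and 0.27 without 780). With 15 genes chosen as stromal regulators of Cxcl12 its r was 0.06 (rho 0.18, 0.32 without 780 and EPH4, and -0.03 without 780). Its nearest genes were Pak3 (r = 0.818), a kinase, Ifi27l2a (0.778), interferon-induced, Kcnab1 (0.777), a potassium channel subunit, Ces1g (0.763), a carboxylesterase, and Gnaz (0.762), a G protein subunit. All 5 were highest in 780, and r without 780 was between 0.59 and 0.69. Cx3cl1 had an r of 0.68 (rho 0.68, and 0.65 without F311 and NMUMG) with the stromal regulators, a list that holds Vim, Zeb1 and Twist1. Its nearest genes were Kctd15 (0.870), Snapc2 (0.819), Hp1bp3 (0.807), Sphk2 (0.801), a sphingosine kinase, and Mylip (0.793), a ubiquitin ligase.

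Receptor levels are given for 7 genes. Ackr3 lay above the array median in 14 of 22 lines and ran from 4.95 in MVT2 to 8.74 in F311. Cxcr3 did so in 5 lines and was highest in 4T1 at 8.07. Ccr1, Ccr3, Cxcr4, Cxcr6 and Cx3cr1 lay above it in 0 lines, with highest values of 4.93, 5.19, 5.17, 6.69 and 7.02. By limma, 0 of 7 passed the adjusted threshold in each comparison and 0 of 7 had an unadjusted p under 0.05. Over all clusters the second share was 11.9%, 7.72% and 5.41%, in the order tumour, GEM and Myc. The largest differences were 0.95 for Cxcr3 between tumour and immortalized lineages, and -0.72 and -0.95 for Ackr3 between GEM and spontaneous and between Myc and other GEM lineages. For Ackr3 these were -0.39 without F311 and -0.63 without MVT2.

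Among 25 other chemokine ligands, Cxcl5, a neutrophil attractant, had the largest difference in every comparison. It averaged 5.67 ± 0.20 in Myc and 8.63 ± 1.81 in other GEM lineages (SD, n = 5 each), a difference of -2.96 (SE 0.70, unadjusted p = 0.00135, limma adjusted p = 0.643). Its differences were -1.94 for tumour minus immortalized and -1.55 for GEM minus spontaneous, the second -0.94 without D2. Of the 25, 0 passed the limma adjusted threshold in any of the 3 comparisons. In the order tumour, GEM and Myc, 2, 0 and 2 had an unadjusted p under 0.05, against 11.9%, 7.72% and 5.41% of clusters. The ligand list as a whole had medians of 0.03, -0.05 and -0.09, against 0.03, -0.04 and 0.03 over all clusters.

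The 12 measured processing genes hold Adam10 and other genes for proteins that cut or bind chemokines. Adam17 was not analysed here. Adam10, a sheddase of Cxcl16 and Cx3cl1, lay above the array median in 22 of 22 lines and was 0.55 higher in GEM than in spontaneous lineages (SE 0.16, unadjusted p = 0.00351, limma adjusted p = 0.249). Mmp2, a gelatinase that can cut Cxcl12, differed by 0.75 between tumour and immortalized and by 0.89 between Myc and other GEM lineages, with limma adjusted p-values of 0.759 and 0.999, and the second was 0.17 without MVT2. By limma, 0 of 12 passed the adjusted threshold in each comparison, and 1, 2 and 1 had an unadjusted p under 0.05. Over all clusters the shares with such a p were 11.9%, 7.72% and 5.41%.

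All 20 interferon-stimulated genes read lower in Myc than in other GEM lineages, with a median of -0.80, against 0.03 over all clusters, of which 58.1% were higher. By limma 0 passed the adjusted threshold, and 7 had an unadjusted p under 0.05, against 5.41% of clusters. Among the 7 was Ifit1, at 5.78 ± 0.59 in Myc and 8.48 ± 2.39 in other GEM lineages (difference -2.69, SE 0.94, limma adjusted p = 0.788). Without 780 all 20 were still lower, with a median of -0.51. In that fit 5 had an unadjusted p under 0.05, and its share of all clusters is not given here. Between tumour and immortalized lineages 17 of 20 were higher, against 54.4% of all clusters, with a median of 0.69. Between GEM and spontaneous lineages 13 of 20 were higher, against 40.7% of all clusters, with a median of 0.07. Without 780 that count was 7 of 20. In those comparisons 0 passed the limma adjusted threshold, and 1 and 0 had an unadjusted p under 0.05, against 11.9% and 7.72% of clusters. The largest differences were 1.77 for Ifit1 and -0.84 for Oasl1, an antiviral oligoadenylate synthetase-like gene, which was -0.39 without EMT6. Genes of this list are in part co-regulated and are not independent of each other.

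Of 24 measured genes of interferon and NF-kappaB signalling, 16 were lower and 8 higher in Myc than in other GEM lineages. The median was -0.48, against 0.03 over all clusters, of which 58.1% were higher. The lower genes include Nfkbia and Tnfaip3, inhibitors of NF-kappaB, at -0.61 and -0.88. By limma 0 of 24 passed the adjusted threshold in each comparison, and 3, 3 and 8 had an unadjusted p under 0.05. The shares of all clusters with such a p were 11.9%, 7.72% and 5.41%. Of the 8 in the Myc comparison, 6 were lower and 2 were higher, Irf8 at 1.31 and Mavs at 0.59. The largest differences were 1.12 for Sting1, the adaptor of cytosolic DNA sensing, between tumour and immortalized, 1.05 for Tlr4, the endotoxin receptor, between GEM and spontaneous, and -1.42 for Irf9, part of the interferon-activated factor that binds the ISRE, between Myc and other GEM lineages. Their limma adjusted p-values were 0.515, 0.437 and 0.788.

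Of the 15 stromal regulators, 1 gene passed the limma adjusted threshold. Tgfbr1, a receptor of TGF-beta, fell by 1.49 in tumour against immortalized lineages, at 7.78 ± 0.48 (SD, n = 15) and 9.18 ± 0.06 (SD, n = 2), with an adjusted p of 0.0293. Its adjusted p was 0.0526 without the dimmest clusters, 0.0518 without 6DT1, 0.109 without EPH4 and 0.0671 without NMUMG, so the call was lost in those fits, where the difference stayed between -1.53 and -1.44. Vim, an intermediate filament of mesenchymal cells, averaged 12.93 ± 0.22 in tumour and 10.63 ± 3.19 in immortalized lineages, a difference of 2.30 (limma adjusted p = 0.112), and its lowest line was EPH4 at 8.37. The Vim difference was 0.04 without EPH4 (adjusted p = 0.982) and 4.56 without NMUMG (adjusted p = 2.56e-08), so it rests on EPH4. Zeb1, a repressor of epithelial genes, was 1.41 higher in GEM than in spontaneous lineages (limma adjusted p = 0.186, and 0.0219 without the M6 lineage). Pdgfrb, a receptor of mural cells and fibroblasts, had the largest Myc difference, -1.14 (limma adjusted p = 0.999), and -0.75 without 6DT1 and -0.70 without ZD2508. With an unadjusted p under 0.05 there were 4, 2 and 1 of 15 genes in the 3 comparisons, against 11.9%, 7.72% and 5.41% of clusters. The list's medians were 0.27, 0.11 and -0.07.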

How the data were processed

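RNA from 22 cell lines was read on exon arrays, 1 per line. The authors deposited 1 value per probe set and array, treated here as log2 because of its range, since no header or label names a scale. Per the submitters' processing notes, GCOS and build mm9 were used. How background was corrected, probes were summarized and arrays were normalized is not given in these sources. The labels' extraction text speaks of tumour samples, while the design text speaks of cultured lines.

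Of 23332 table entries, the 16755 numbered as transcript clusters were tested. Gene names came from the platform annotation, with 14996 clusters of 1 symbol and 1019 of several. Identifiers of 14941 matched the RefSeq gene table, and 0 symbols were updated. A gene with several clusters was named from its brightest on average.

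Lines of 1 lineage were averaged. Values of 17 lineages were fitted with limma 3.58.1 (lmFit and eBayes, R 4.3.3) with Benjamini-Hochberg adjustment over all 16755 clusters at 0.05. Tumour, as the mean of GEM and spontaneous, was set against immortalized, and GEM against spontaneous, in 1 fit. For Myc against other drivers the model held just the 10 GEM lineages. Exact two-sided permutation tests on means were run for each chemokine. The fit was tested on simulated data. Correlations are given without p-values.

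The members and gene lists were chosen with earlier results of these data known. Genes were named by rule, namely the members, the receptors, in each other pathway list any gene past the threshold and the 1 with the largest difference per comparison, and for each member the 5 genes with the highest r. Ptprc, Cd68, Csf1r, Adgre1, Itgam, S100a8, Nfkbia, Tnfaip3, Irf8, Mavs and Twist1 were named after their values were seen. Alternatives covered quantile normalization, median centring, single lines as replicates, all table entries, a filter on dim clusters, trend and robust eBayes, the narrow arrays and each lineage left out. Other calculations used Python 3.11.15, numpy 2.4.6, pandas 2.3.3, scipy 1.17.1 and matplotlib 3.10.9.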

Additional observations from a re-analysis of the deposited data

Results flagged for a closer look

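Within groups of 5 or 10 lineages, 5 of 20 gene and group combinations had a sample far from the others by Dixon's test, which chance gives in about 1 of 20. Ccl5 read 11.07 in 780, a gap of 3.28 to the next GEM lineage. Cxcl10 read 10.89 in 780, a gap of 3.32, both among all GEM lineages and among those without Myc. Ccl5 read 6.60 in Myc83, 0.79 above the next Myc lineage. Cxcl12 read 6.75 in TSA, 0.95 above the next spontaneous lineage. The combinations overlap, since the GEM lineages include both driver groups.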

How the results depend on the processing

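No chemokine passed the limma adjusted threshold under any alternative, with an adjusted p of 0.0652 to 0.399 for Cx3cl1 in tumour against immortalized and of 0.0528 to 1.0 for Cxcl16 in Myc against other GEM lineages. By exact permutation, Cx3cl1 (1.83, p = 0.0147), Cxcl10 (-1.21, p = 0.0476) and Cxcl16 (-2.11, p = 0.0238) had an unadjusted p under 0.05.

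Signs of some differences that missed the threshold turned. In tumour against immortalized Cxcl12 was 0.31 without EPH4, over a range of -1.45 to 0.31 with each lineage left out. In GEM against spontaneous Cxcl12 was -0.09 without the 3 narrow arrays, -0.16 without 780, -0.06 without D2 or ZD2508 and -0.02 without EMT6 (range -0.16 to 0.27). There Cxcl10 was 0.05 without D2 and 0.02 without EMT6 (range -0.57 to 0.05), and Cxcl16 0.05 without F311 (range -1.26 to 0.05). In Myc against other GEM Cx3cl1 was -0.02 without 6DT1 or Myc83, -0.03 without MVT1 and -0.06 without 780 (range -0.06 to 0.22). The causes were not tested.

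Counts of all clusters past the threshold moved more. For tumour against immortalized, 50 became 120 after quantile normalization, 103 with single lines as replicates, 412 with all table entries, 2 without the dimmest clusters, and 28 to 413 with each lineage left out, 28 without 6DT1, 32 without 4T or D2, 33 without EMT6, 82 without TSA, 139 without EPH4 and 413 without NMUMG. For GEM against spontaneous, 19 became 91 with single lines and 9 to 32 with each lineage left out, 9 without D2, 10 without 4T, 12 without EMT6 and 32 without 780. For Myc against other GEM, 2 became 4 with single lines, 0 with all lineages in 4 groups and 2 to 15 with each lineage left out, 15 without p1522. Among the named pathway genes, Tgfbr1 in tumour against immortalized lost its call in 4 fits, with differences of -1.53 to -1.44, and Vim and Zeb1 gained one in 2 and 1. The median of the other ligands in the Myc comparison was -0.33 without the dimmest clusters. Cxcl12 had no value without the dimmest clusters, no member had a second probe set, and leaving out the Wnt lineage is the same fit as leaving out ZD2508. No paired analysis was possible because no group shares replicate numbers from the labels. Fits without EPH4 or NMUMG hold 1 immortalized lineage, assumed to vary like the other groups. Signal over background was not analysed here.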
